A study of Saccharomyces cerevisiae with 10 samples.

Results

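The genes described here are 10 budding yeast genes of the cell cycle engine and of deoxynucleotide synthesis, taken by name: the G1 cyclins CLN1 (YMR199W) and CLN2 (YPL256C), the B-type cyclins CLB2 (YPR119W) and CLB5 (YPR120C), the Cdk inhibitor SIC1 (YLR079W), the kinase CDC28 (YBR160W), and the ribonucleotide reductase genes RNR1 (YER070W), RNR2 (YJL026W), RNR3 (YIL066C) and RNR4 (YGR180C). Of these 10, 9 are listed for every strain, among 4964 genes listed for all 5 strains. RNR3, the damage-inducible large subunit, has no entry in the list of any strain and was not analysed here. Ribosome-protected fragments (footprints) and mRNA fragments were measured in 5 strains of the S288C background, with 1 library of each kind per strain and no replicates. Cells were taken in growing culture by filtration and frozen at once in liquid nitrogen.

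ACA-K lacks 3 of the 4 gene copies of the threonine tRNA that reads ACA codons, namely tT(UGU)G2, tT(UGU)H and tT(UGU)P, and carries nourseothricin, kanamycin and hygromycin B resistance markers in their place. AGG-OE carries the arginine tRNA gene tR(CCU)J, which reads AGG codons, on the multicopy 2-micron plasmid pRS426. In AGG-QC the same plasmid carries another arginine tRNA, tR(UCU)B, with its anticodon changed to CCU. WT-URA is the unmodified strain with a URA plasmid, and wild-type has neither plasmid nor deletion. Following the study, ACA-K was set against wild-type, and AGG-OE and AGG-QC each against WT-URA, so these last 2 comparisons share 1 pair of libraries. WT-URA was also set against wild-type, a comparison in which the plasmid, the library and any difference in medium cannot be told apart. The paper names rich medium for the wild-type data and selection without uracil in making AGG-OE. It does not state the medium in which the plasmid strains were grown for profiling.

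Cdc28 is the single cyclin-dependent kinase that drives the yeast cell cycle, and its partner decides what it does. The G1 cyclins Cln1 and Cln2 carry cells through Start, Clb5 turns on DNA replication and Clb2 drives mitosis. Sic1 holds the Clb-bound kinase inactive until it is destroyed at the end of G1. Ribonucleotide reductase makes deoxynucleotides for replication. Its large subunit is Rnr1, and its small subunit in yeast is a pair of the proteins Rnr2 and Rnr4.

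Footprints per strain ranged from 6011287 in AGG-QC to 29706058 in wild-type. URA3, the plasmid marker, is listed for AGG-OE, AGG-QC and WT-URA and for neither ACA-K nor wild-type. Levels are given as parts per 1000000 (ppm) of the footprints, or of the mRNA signal, in the genes that all 5 strains share. Translation efficiency (TE) is the footprint level of a gene divided by its mRNA level. Intervals are exact 95% binomial intervals of the footprint counts and cover counting error only. The mRNA signal has no named unit, so neither mRNA levels nor TE have an interval.

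Per kilobase of coding sequence, the reductase genes stood far above the cyclin genes. The median footprint level over the 5 strains was 889 ppm per kilobase for RNR4, 688 for RNR2, 191 for RNR1, 109 for SIC1, 84.6 for CDC28, 58.9 for CLN2, 54.5 for CLB2, 39.0 for CLN1 and 20.1 for CLB5. RNR4, RNR2 and RNR1 kept the first places in this order in all 5 strains and CLB5 the last. The places between were less settled. SIC1 stood above CDC28 in AGG-OE, AGG-QC and WT-URA, below it in ACA-K, and level with it in wild-type, where the interval of their ratio per codon, 0.95 to 1.08, includes 1.

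The order of TE was not the order of the levels. RNR2 had the highest median TE over the strains (1.90), ahead of RNR4 (1.28) and RNR1 (1.10). CLB2 (0.72), CDC28 (0.70) and CLN2 (0.57) lay near or above the median gene, whose TE was between 0.55 and 0.61 in each strain. CLN1 (0.43), SIC1 (0.42) and CLB5 (0.24) lay below it. CLB5 stood between percentiles 7.17 and 10.1 of all genes for TE in each strain, and RNR2 between 96.3 and 97.0. The adjacent genes CLB2 and CLB5, which are neighbours on the chromosome, thus differed in TE in every strain, by 2.57-fold in WT-URA and up to 4.62-fold in wild-type.

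**Figure D1:**
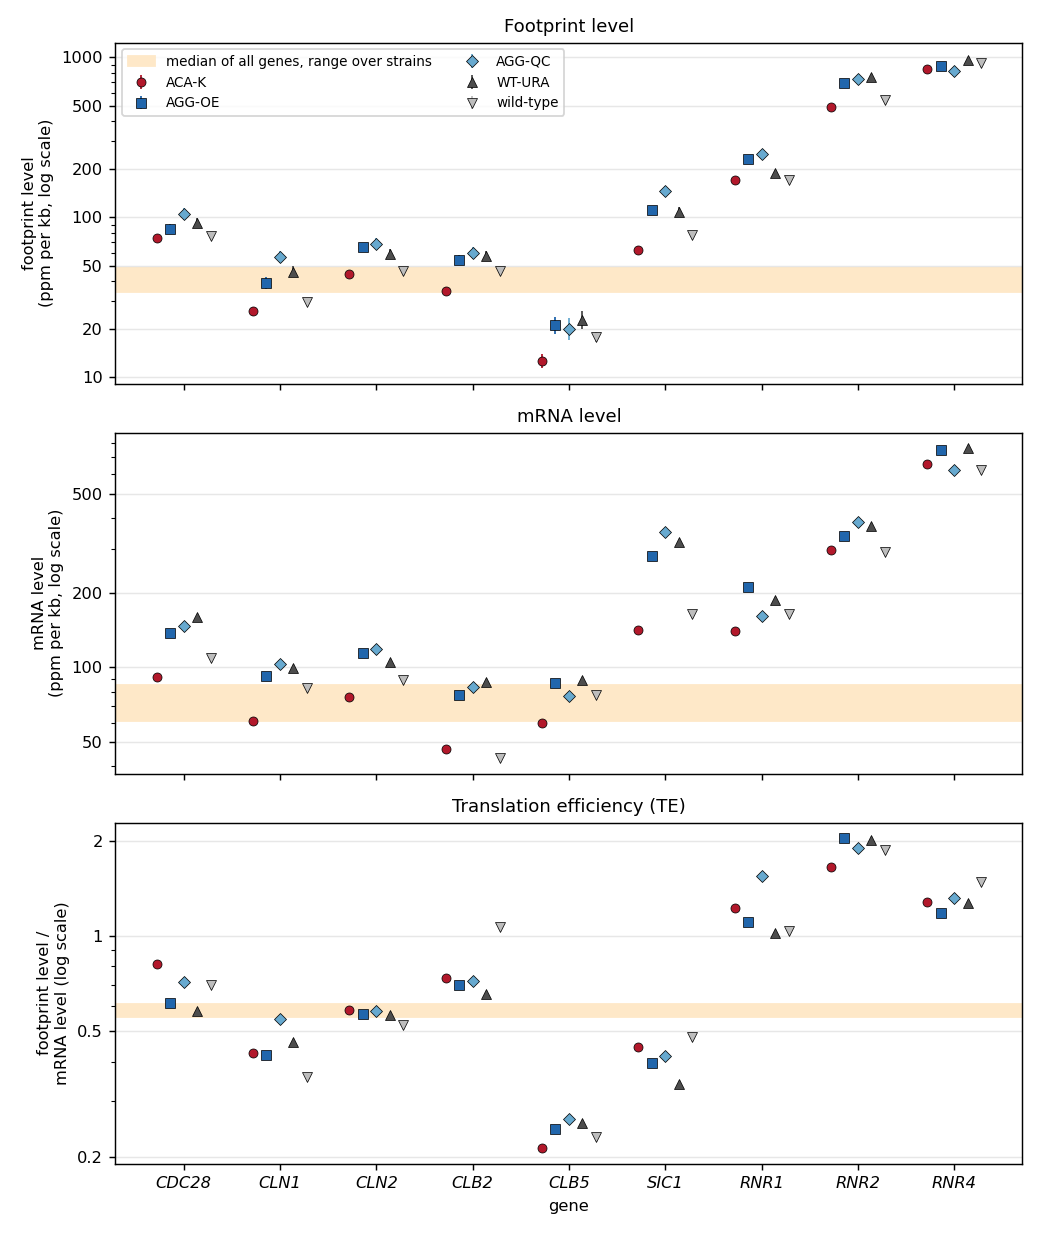
Footprint level, mRNA level (both in ppm per kilobase, log axes) and TE (log axis) of the 9 listed genes in ACA-K, AGG-OE, AGG-QC, WT-URA and wild-type, left to right within a gene. Each point is 1 library, bars are 95% counting intervals (footprints only), and the band is the range over strains of the median gene. RNR2, RNR4 and RNR1 lie above the band in all panels, and CLB5 lies below it for footprints and TE.

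CDC28 encodes the kinase that all the cyclins share. It had 66.4 ppm of footprints in ACA-K, 75.9 in AGG-OE, 94.1 in AGG-QC, 83.0 in WT-URA and 68.9 in wild-type. Its mRNA level was 81.7, 124, 131, 143 and 98.2 ppm in the same order of strains. The 3 plasmid strains were thus higher than ACA-K and wild-type in both measures, as they were in 45.5% of 4087 genes with enough footprints in every strain. Of the 9 genes, 6 had all 3 plasmid strains above both plasmid-free strains in mRNA (52.8% of all genes), 8 in footprints (60.8%) and 6 in both. The median gene moved the same way, with 41.9, 48.3 and 44.9 ppm of footprints per kilobase in AGG-OE, AGG-QC and WT-URA against 34.3 in ACA-K and 35.0 in wild-type. With libraries scaled by the median of ratios instead, an alternative chosen after seeing the data, the counts were 3 for mRNA (CLB2, SIC1 and CDC28), 2 for footprints (CLN1 and SIC1) and 1 for both (SIC1). In WT-URA against wild-type the footprint log2 ratio of CDC28 was 0.27, and -0.10 by the median of ratios. Its footprint log2 ratio was -0.05 (-0.15 to 0.04) in ACA-K against wild-type, -0.13 (-0.28 to 0.03) in AGG-OE against WT-URA and 0.18 (0.02 to 0.34) in AGG-QC against WT-URA.

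The G1 cyclin CLN1 had 42.5 ppm of footprints in ACA-K, 64.0 in AGG-OE, 92.8 in AGG-QC, 75.0 in WT-URA and 48.5 in wild-type. Its mRNA level was 99.9, 152, 170, 163 and 136 ppm in that order. The plasmid strains lay above the plasmid-free strains in both measures, as for CDC28, but by the median of ratios in footprints alone. CLN1 was the only one of the 9 genes to pass 1.5-fold in footprints between WT-URA and wild-type (log2 ratio 0.63, 0.49 to 0.76). The median of all genes in that comparison was itself 0.35, and past it CLN1 was 0.28 higher.

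Its partner CLN2 had 72.6 ppm of footprints in ACA-K, 106 in AGG-OE, 113 in AGG-QC, 96.5 in WT-URA and 76.1 in wild-type. The mRNA level was 125, 188, 194, 172 and 145 ppm. Footprints and mRNA of CLN2 went up and down together across the strains, so that its TE was 0.58, 0.57, 0.58, 0.56 and 0.52. This 1.11-fold range of TE lay at percentile 2.20 of the ranges of the 4087 genes with enough footprints in every strain. CLN1, a close relative, spanned 1.53-fold in TE and lay at percentile 70.7.

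CLB2, the mitotic cyclin, had 51.1 ppm of footprints in ACA-K, 80.5 in AGG-OE, 88.8 in AGG-QC, 85.0 in WT-URA and 67.9 in wild-type. Its mRNA level was 69.3, 115, 123, 129 and 63.6 ppm. Unlike CLN2, its mRNA was lowest in wild-type while its wild-type footprints were not. The TE of CLB2 was 0.74, 0.70, 0.72 and 0.66 in ACA-K, AGG-OE, AGG-QC and WT-URA, against 1.07 in wild-type, and only the wild-type library stood apart. In WT-URA against wild-type the mRNA of CLB2 rose past 1.5-fold (log2 ratio 1.02) and its TE fell past it (-0.70, percentile 1.22 of all genes). In ACA-K against wild-type its TE log2 ratio was -0.53, which lies inside the 1.5-fold bound of 0.585 but at percentile 1.55. Both ratios rest on the same wild-type libraries.

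CLB5, the S-phase cyclin, had the fewest footprints of the 9 genes, 361 in ACA-K, 250 in AGG-OE, 157 in AGG-QC, 251 in WT-URA and 691 in wild-type. This was 16.6, 27.6, 26.3, 29.9 and 23.4 ppm of footprints, and the mRNA level was 78.1, 113, 100.2, 117 and 101. CLB5 was lowest in ACA-K in both measures. Its log2 ratio in ACA-K against wild-type was -0.49 for footprints (-0.68 to -0.31) and -0.37 for mRNA. The footprint interval includes the 1.5-fold bound, so at this depth it is not settled whether CLB5 passed it.

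The inhibitor SIC1 spanned the widest range of footprint level among the 9 genes, 2.33-fold, at percentile 80.5 of all ranges. It had 53.8 ppm of footprints in ACA-K, 94.7 in AGG-OE, 125 in AGG-QC, 93.1 in WT-URA and 66.7 in wild-type. Its mRNA level was 121, 240, 299.8 and 273 ppm in ACA-K, AGG-OE, AGG-QC and WT-URA, and 140 in wild-type. Each plasmid strain was higher than both plasmid-free strains in both measures, under either scaling. SIC1 mRNA rose past 1.5-fold in WT-URA against wild-type (log2 ratio 0.97). Its footprints had a smaller log2 ratio (0.48, 0.36 to 0.60), and its TE was 0.34 in WT-URA against 0.48 in wild-type.

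The genes whose pattern over the 10 libraries lay nearest to SIC1 were FMC1, DUN1 and FAR8. Distance was measured over 10 log2 levels, each centred on the gene's own mean over the 5 strains. It was 0.18 for FMC1, 0.26 for DUN1 and 0.28 for FAR8, while the median of 4087 genes was 1.21. Genes picked as nearest lie below the median whatever the gene asked about, and a link between these genes was not tested. Dun1 is a checkpoint kinase that acts on ribonucleotide reductase and its inhibitors.

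RNR1, the large subunit, had 456 ppm of footprints in ACA-K, 619 in AGG-OE, 663 in AGG-QC, 508 in WT-URA and 456 in wild-type. Its mRNA level was 373, 562, 430.0, 499 and 439 ppm. Footprints of RNR1 were higher in both AGG strains than in WT-URA, by a log2 ratio of 0.28 (0.23 to 0.34) in AGG-OE and 0.38 (0.32 to 0.45) in AGG-QC, both inside 1.5-fold. In AGG-OE the mRNA ratio had the same sign (0.17), and in AGG-QC the opposite sign (-0.21). The TE of RNR1 was accordingly 1.54 in AGG-QC against 1.02 in WT-URA, a log2 ratio of 0.60, just past the bound. The call was lost, for example, by the median of ratios (0.49) and past the first 100 codons (0.55).

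This TE ratio moved with the length of the gene. The median TE log2 ratio in AGG-QC against WT-URA was -0.06 in 1325 genes of up to 300 codons, 0.08 in genes of 300 to 500, 0.14 in genes of 500 to 700, 0.26 in 655 genes of 700 to 1100 and 0.37 in 288 longer genes. RNR1 has 888 sense codons, and among the 655 genes of its length it lay at percentile 90.5, where 9.77% of genes passed 1.5-fold. The part of gene length in the RNR1 value was not tested. The nearest patterns to RNR1 over the 10 libraries were those of YPP1 (distance 0.19), RFC5 (0.28) and BUD4 (0.30), against a median of 0.84. These too were picked as nearest, so they lie below the median by selection.

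RNR2, a small subunit gene, had 590 ppm of footprints in ACA-K, 825 in AGG-OE, 881 in AGG-QC, 900 in WT-URA and 655 in wild-type. Its mRNA level was 358, 405, 463, 446 and 349 ppm. As for CDC28, CLN1, CLN2, CLB2 and SIC1, the plasmid strains were the higher ones in both measures, and as for CLN2 in neither by the median of ratios. RNR4, the other small subunit gene, had 876, 922, 854, 1005 and 959 ppm of footprints, with mRNA at 686, 780.2, 648, 791 and 647. RNR4 had no such split, and its 1.18-fold range of footprint level lay at percentile 5.06.

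Counted together, no member passed 1.5-fold in ACA-K against wild-type. The counts were 0 of 9 for mRNA, footprints and TE, where 2.8% of 4717 genes passed for mRNA, 2.78% for footprints and 3.26% for TE. In AGG-OE against WT-URA they were again 0 of 9 in each measure, beside 3.87% of 4344 genes for mRNA, 3.87% for footprints and 1.8% for TE. In AGG-QC against WT-URA they were 0 for mRNA (4.62% of 4156 genes), 0 for footprints (3.42%) and 1 for TE (5.46%), which is RNR1. With 9 genes, shares of this size leave less than 1 gene to be counted, and the members' counts are near the background.

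In WT-URA against wild-type 2 of 9 passed for mRNA, where 34.3% of 4431 genes did, 1 of 9 for footprints (41.8%) and 1 of 9 for TE (8.76%). Over all genes 78.2% of the footprint calls were higher in WT-URA, and 44.6% were when libraries were scaled by the median of ratios instead. Direction in this comparison is therefore read against the median of all genes, 0.28 for mRNA and 0.35 for footprints. Of the 9 genes, 4 lay above that median for footprints and 5 below. CLB2 and SIC1 mRNA passed 1.5-fold under either scaling (0.73 and 0.67 by the median of ratios), while CLN1 footprints did not (0.26).

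**Figure D2:**
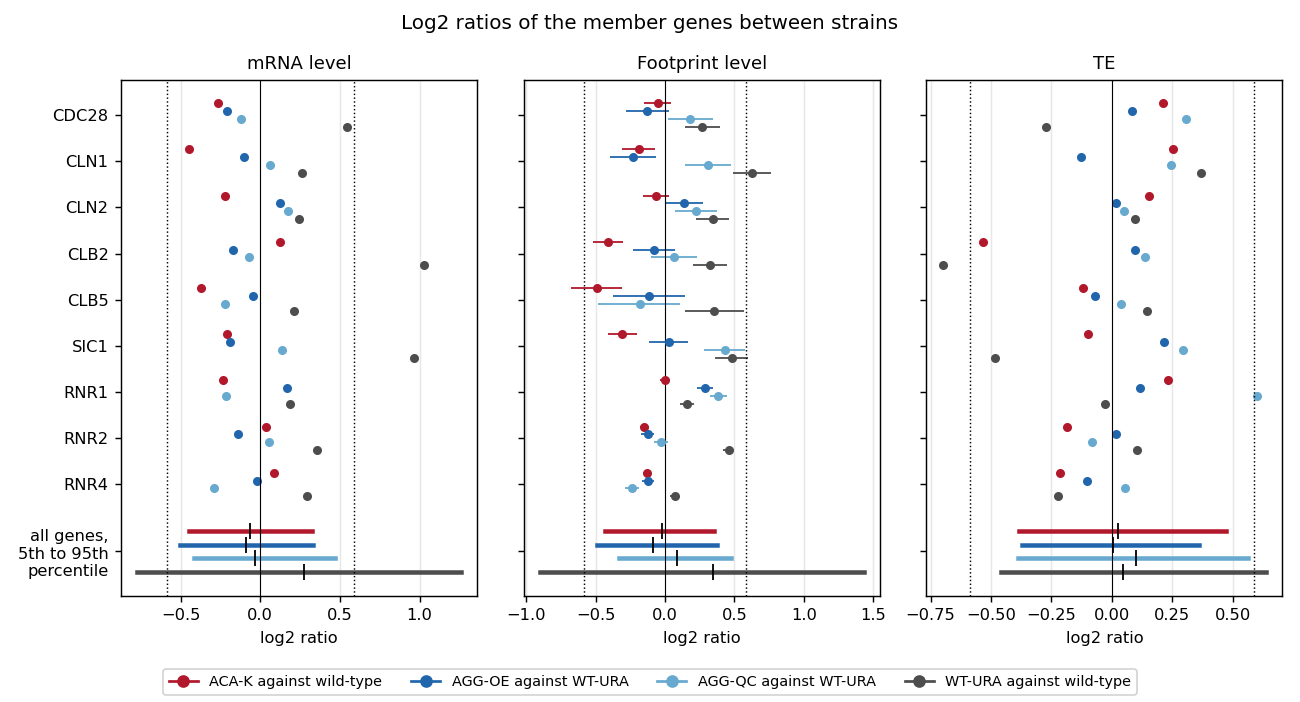
Log2 ratios of mRNA level, footprint level and TE for the 9 genes in the 4 comparisons (colours), with 95% counting intervals for footprints and dotted lines at 1.5-fold. The bars at the bottom span percentiles 5 to 95 of all genes compared and the ticks their median. Most members lie between the dotted lines. CLB2 and SIC1 mRNA and CLN1 footprints in WT-URA against wild-type lie to the right, and CLB2 TE lies to the left. RNR1 TE in AGG-QC against WT-URA lies just to the right.

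Ratios between members within a strain do not depend on the scaling between libraries. The small subunit genes are given first. Per codon, RNR4 had 1.72 times the footprints of RNR2 in ACA-K (1.68 to 1.76), 1.29 in AGG-OE (1.25 to 1.33), 1.12 in AGG-QC (1.08 to 1.17), 1.29 in WT-URA (1.25 to 1.33) and 1.69 in wild-type (1.66 to 1.72). The 2 plasmid-free strains differed by less than their intervals, as did AGG-OE and WT-URA, and the intervals of these 2 pairs lay apart from each other and from AGG-QC. The mRNA ratio did not split in this way, at 2.22, 2.23, 1.62, 2.05 and 2.14. With libraries scaled by their total, RNR2 footprints were higher in all 3 plasmid strains, as in 60.8% of 4087 genes, and RNR4 footprints were not. Single genes often moved between these libraries, with 41.8% of 4431 genes past 1.5-fold in footprints in WT-URA against wild-type. How many other pairs of genes have a ratio that splits between these strains was not counted, and the intervals cover counting error in 1 library per strain.

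RNR4 has many of its footprints at the start of the gene. Past codon 100 the RNR4 to RNR2 ratio was 1.38, 0.98, 0.88, 0.96 and 1.37, with the same split at a lower level. RNR2 to RNR1 was 2.87 in ACA-K, 2.96 in AGG-OE, 2.95 in AGG-QC, 3.93 in WT-URA and 3.19 in wild-type, so WT-URA stood apart from both AGG strains (3.79 to 4.08 in WT-URA, against 2.86 to 3.07 in AGG-OE and 2.83 to 3.08 in AGG-QC).

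Among the cyclins, CLN2 to CLN1 per codon was 1.71 in ACA-K, 1.66 in AGG-OE, 1.22 in AGG-QC, 1.29 in WT-URA and 1.57 in wild-type. CLB2 to CLB5 held between 2.52 and 2.99 in footprints with overlapping intervals in all strains. The mRNA of this pair did not hold in the same way, since CLB2 to CLB5 was 0.79, 0.90, 1.09 and 0.98 in ACA-K, AGG-OE, AGG-QC and WT-URA and 0.56 in wild-type. SIC1 to CDC28 was 0.85 in ACA-K, 1.31 in AGG-OE, 1.40 in AGG-QC, 1.18 in WT-URA and 1.02 in wild-type.

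**Figure D3:**
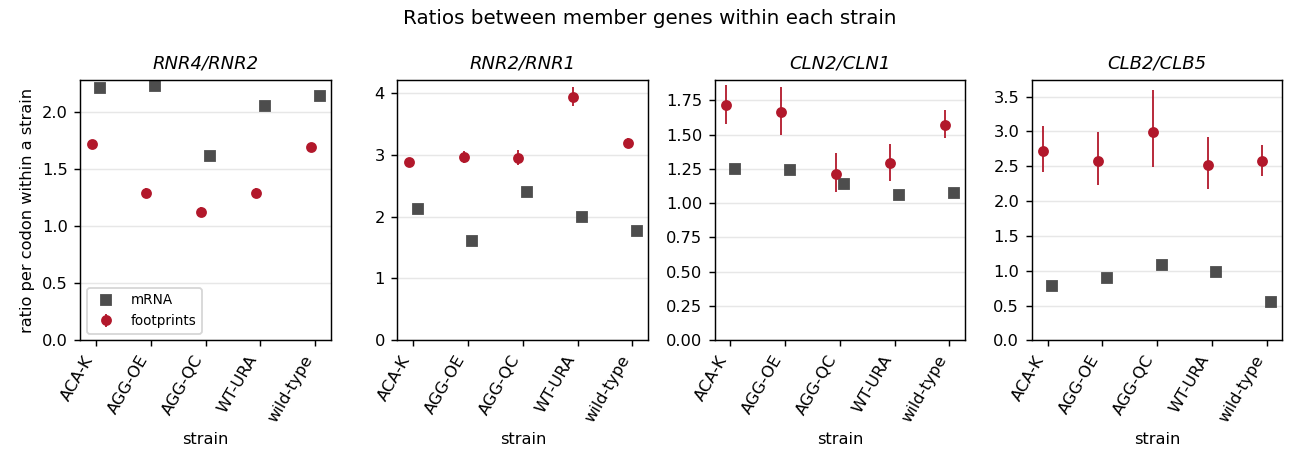
Ratios per codon between pairs of genes within each of the 5 strains (x axis), for footprints (circles with 95% counting intervals) and mRNA (squares, no interval), on axes that start at 0. RNR4 over RNR2 in footprints is 1.72 in ACA-K and 1.69 in wild-type and between 1.12 and 1.29 in the 3 plasmid strains. CLB2 over CLB5 in footprints stays between 2.52 and 2.99.

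Along the coding sequence the plasmid libraries carried more footprints near the start. The share in codons 1 to 20 had a median over 3684 genes of 4.33% in ACA-K, 12.5% in AGG-OE, 12.4% in AGG-QC, 15.0% in WT-URA and 4.16% in wild-type. The values of the members are given beside this median. The share of all genes in which the plasmid libraries lie higher was not counted. CLN1 had 4.55% in ACA-K, 13.3% in AGG-OE, 16.5% in AGG-QC, 19.4% in WT-URA and 4.40% in wild-type. CDC28 had 10.7%, 16.6%, 22.1%, 22.7% and 6.98%, the largest share of the 9 in every strain but wild-type, where CLN2 had 7.07%. RNR2 had one of the smallest, 4.09%, 9.11%, 6.97%, 9.27% and 2.92%. A share in a fixed 20 codons also depends on gene length, and CDC28 has 298 sense codons against 888 in RNR1. Relative to later codons, the footprint density in codons 1 to 20 of CDC28 was 3.03 in AGG-OE, 4.50 in AGG-QC and 4.98 in WT-URA. These densities lay at percentiles 39.6, 65.8 and 55.0 of all genes. RNR1 was the highest of the 9 there, with 9.02, 8.13 and 8.79. In ACA-K and wild-type CLN2 was the highest, with 2.9 and 2.2, against 1.9 and 1.1 in CDC28.

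**Figure D4:**
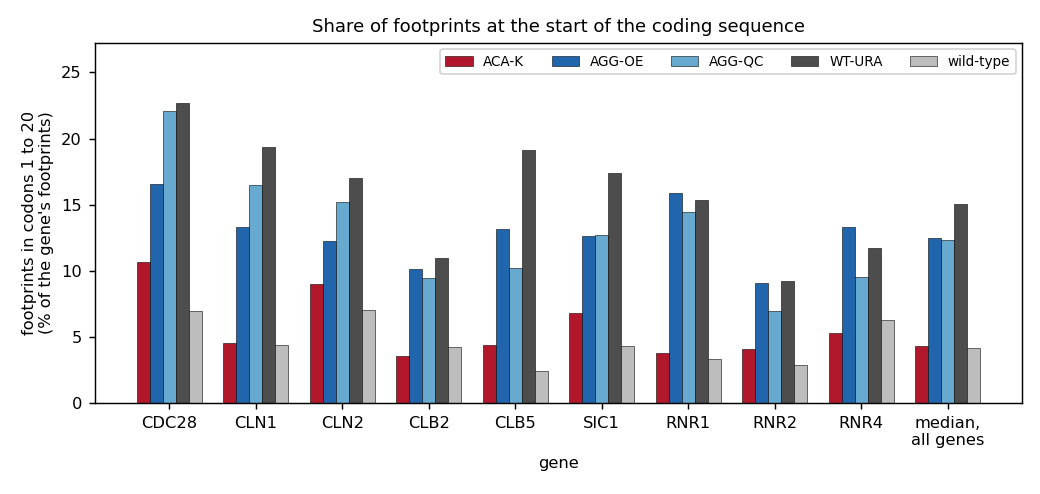
Share of each gene's footprints in codons 1 to 20 (%), for the 9 genes and the median of 3684 genes, in ACA-K, AGG-OE, AGG-QC, WT-URA and wild-type (bars, left to right, 1 library each). In the median of all genes AGG-OE, AGG-QC and WT-URA lie above ACA-K and wild-type, and the members go the same way. The share of all genes that do so was not counted.

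Single codons accounted for part of it. Codon 2 of RNR1 held 478 footprints in AGG-OE, 277 in AGG-QC and 292 in WT-URA, which is 75.8, 62.3 and 60.9 times the mean codon of the gene, but 21 in ACA-K and 58 in wild-type (1.88 and 3.83 times). Codon 2 was the highest codon of 36.0% of genes in AGG-OE, 25% in AGG-QC, 36.1% in WT-URA, 1.47% in ACA-K and 13.2% in wild-type, so RNR1 is one of many. In CDC28 the early peak was at codon 8, with 41 footprints in AGG-OE, 79 in AGG-QC and 63 in WT-URA, against 27 in ACA-K and 13 in wild-type. CLN2 went the other way at codon 2, with 1 footprint in AGG-OE and none in AGG-QC and WT-URA, against 16 in ACA-K and 53 in wild-type.

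CDC28 held a codon that was occupied in one set of libraries and empty in the other. AGG-OE, AGG-QC and WT-URA had 0 of 687, 561 and 696 footprints at codon 196, which allows a share of up to 0.44%, 0.53% and 0.43% of the gene (3 counts per library). The same codon had 77 footprints in ACA-K and 75 in wild-type, 15.97 and 11.02 times the mean codon, and was the highest codon of the gene in both. Its share of the gene was 5.34% in ACA-K and 3.69% in wild-type, at least 6.89-fold higher than that limit in any plasmid library. Such codons, with at least 5 times the gene mean in both ACA-K and wild-type and none in the 3 plasmid libraries, were found in 19.7% of 3684 genes, and the reverse in 13.2%. CDC28 and CLB5 (codon 199, with 6 footprints in ACA-K and 8 in wild-type) are the members with one, and no member had the reverse. In CLB5 the share at codon 199 in wild-type, 1.16%, is below the limit that 0 footprints allow in each plasmid library (1.20%, 1.91% and 1.20%), so no difference was detectable there at this depth.

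RNR2 had the same highest codon in all 5 strains, a codon 32.1% of the way along its 399 sense codons, with 396 footprints in ACA-K, 323 in AGG-OE, 291 in AGG-QC, 335 in WT-URA and 525 in wild-type, between 10.8 and 22.2 times the mean codon. Codon 150 was also among the 5 highest in every strain (240, 231, 148, 231 and 357 footprints). A highest codon shared by all strains was found in 111 of 3684 genes (3.01%), and RNR2 was the only member with one. CLN2 came close, with codon 20 the highest in ACA-K, AGG-OE, AGG-QC and WT-URA (65, 47, 44 and 56 footprints) and among the 5 highest in wild-type (39).

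**Figure D5:**
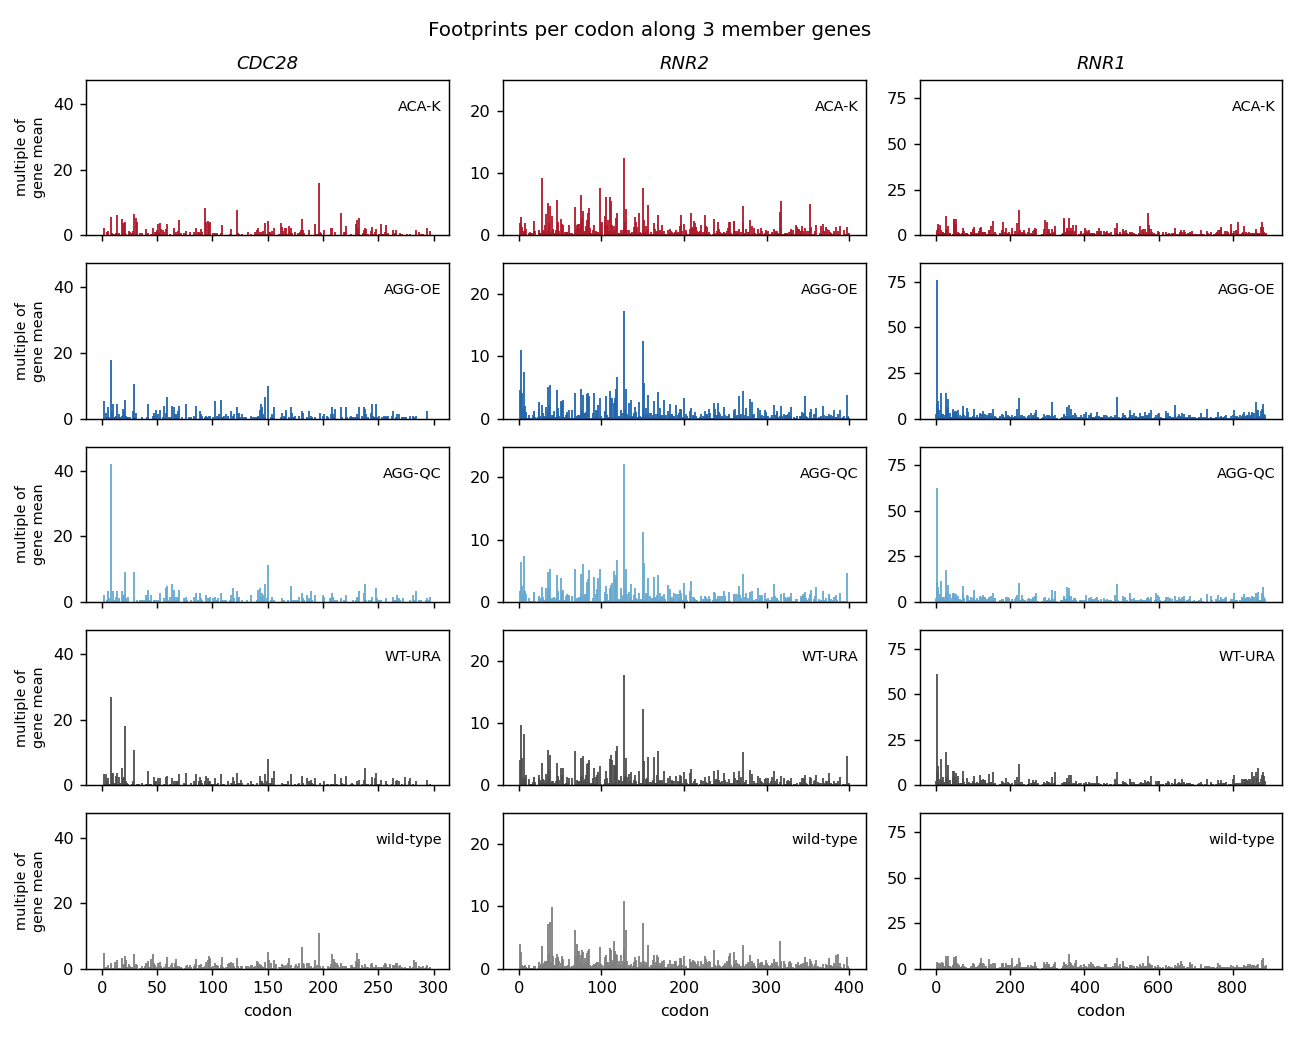
Footprints per codon (multiple of the gene's mean codon) along CDC28, RNR2 and RNR1, from the first codon to the stop codon, in the 5 strains from ACA-K at the top to wild-type at the bottom. In RNR2 the codon 32.1% of the way along is the highest in every strain. In CDC28 codon 196 is the highest in ACA-K and wild-type, and codon 8 in the 3 plasmid strains. In RNR1 codon 2 is 60.9 to 75.8 times the mean in the plasmid strains.

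A few further shapes held in every strain without regard to the plasmid. SIC1 had few footprints in codons 21 to 100, with a density of 0.63 in ACA-K, 0.70 in AGG-OE, 0.75 in AGG-QC, 0.72 in WT-URA and 0.49 in wild-type relative to the rest of its body. The median gene had a density between 1.42 and 1.77 there, and SIC1 lay between percentiles 0.76 and 2.36. RNR4 lay near the other end, with densities of 2.49 to 2.75 at percentiles 85.6 to 93.8. RNR1 in turn gathered footprints in its last 10 sense codons, where its density was 2.02, 3.45, 3.24, 3.92 and 2.62 against a median of 0.74 to 0.85, at percentiles 92.7 to 99.6.

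The wild-type library spread its footprints more evenly than ACA-K and WT-URA, and this touches the codon values above. With each gene reduced to the same number of footprints, 37.2% of the codons of CDC28 were empty in ACA-K against 16.2% in wild-type, and 57.1% against 39.1% in CLN1. All 9 genes had more empty codons in ACA-K than in wild-type at equal depth, as did 98.4% of 3684 genes. All 9 also had more in WT-URA than in wild-type, with 43.6% against 29.7% in CDC28, as did 96.6% of genes. In AGG-OE and AGG-QC against WT-URA the differences for the 9 genes lay between -3.49 and 5.0 percentage points.

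Codon counts of the members were compared between strains by rank correlation across codons, as a description in which the codons of a gene share libraries and depth. The median Spearman rho was 0.51 between ACA-K and wild-type (lowest 0.39 in CLB5, highest 0.78 in RNR4), 0.71 between AGG-OE and WT-URA, 0.67 between AGG-QC and WT-URA, and 0.44 between WT-URA and wild-type. The medians over 3684 genes were 0.46, 0.55, 0.53 and 0.36. The reductase genes had the highest rho in each of the 4 pairs of strains, and CLB5 had the lowest in each, down to 0.22 between WT-URA and wild-type. The reductase genes also had the most footprints of the members and CLB5 the fewest. The part of depth in these rho values was not tested.

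Other genes of the same pathways were looked up from 6 lists of named genes. In footprints, 17 other cyclins and Cdk regulators, 9 G1/S transcription genes, 13 G1/S-expressed replication genes, 6 MCM helicase genes and 15 G2/M genes all had values in ACA-K against wild-type, as did 15 genes of deoxynucleotide control. Of these genes 1 passed 1.5-fold, where 2.78% of all genes did. It was FAR1, which encodes a Cdk inhibitor of the pheromone response, and it fell to 65.0 ppm of footprints in ACA-K, against 113 in wild-type (log2 ratio -0.80, -0.89 to -0.71). In mRNA 2 of the 17 other cyclins and Cdk regulators fell past 1.5-fold, where 1.95% of 4717 genes did, and no gene of the other lists passed. They were the cyclins CLB6 (-0.77) and CLN3 (-0.69), named here after their values were seen. No list gene with a value passed in footprints in AGG-OE or AGG-QC against WT-URA, where 3.87% of 4344 and 3.42% of 4156 genes did. Of the 15 deoxynucleotide genes 12 and 10 had a value there, as did 16 of the 17 cyclins and regulators in AGG-QC. All other list genes had one.

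In WT-URA against wild-type, 4 of 17 other cyclins and Cdk regulators rose past 1.5-fold in footprints and none fell, where 32.7% of all genes rose past it. The list median was 0.46 beside 0.35 over all genes, and the count is not above the background. CLB1, the closest relative of CLB2, had 113 ppm of footprints in WT-URA against 37.0 in wild-type (log2 ratio 1.61, 1.48 to 1.73), and CLN3, the upstream G1 cyclin, 41.5 against 18.1 (1.19). CLB4 (0.62) and MIH1 (0.60), the phosphatase that activates Cdc28, were the other 2, both less than 0.3 above the median of all genes. CLB1 mRNA had a log2 ratio of 1.36, so CLB1 moved in footprints as in mRNA, whereas CLB2 passed in mRNA only.

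Of 9 G1/S transcription genes 5 rose in footprints in WT-URA against wild-type (list median 0.66), beside the same 32.7% of all genes. That count holds for libraries scaled by their total. By the median of ratios 622 of 4431 genes rose past the bound instead of 1447, and the lists were not counted under that scaling. The 5 that rose as first scaled include the repressors YHP1 (1.10), YOX1 (0.89) and WHI5 (0.77). Another is SWI4 (0.71), the DNA-binding subunit of the factor that turns on CLN1 and CLN2. Of 13 deoxynucleotide genes with a value 3 rose (median 0.37), which are HUG1 (0.74), a damage-induced inhibitor of the reductase, CDC8 (0.67), the thymidylate kinase, and YNK1 (0.64), the nucleoside diphosphate kinase. Of 15 G2/M genes 4 rose (median 0.46), including NDD1 (1.06), an activator of the CLB2 gene cluster, and SWI5 (0.76). In the deoxynucleotide and G2/M lists the share that rose was below that over all genes. No replication or MCM gene passed, and those lists had medians of 0.17 and 0.02, below the median of all genes.

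For TE in AGG-QC against WT-URA, 3 of 13 replication genes rose and none fell, where 4.19% of all genes rose past the bound. Over all genes 76.7% of these TE calls were higher in AGG-QC as first scaled, and 41.0% by the median of ratios. The lists were not counted under the median of ratios. The median of the replication list was 0.43 beside 0.10 over all genes, and that of the 6 MCM genes, none past the bound, was 0.31. The replication genes past it were POL3 (0.89), POL12 (0.84) and CDC45 (0.68), named after their values were seen, as are the genes of the next sentence. In the other lists SWI6 (0.60) rose and YOX1 (-0.67) fell among the G1/S transcription genes, RAD53 (0.75) rose and DIF1 (-0.70) fell among the deoxynucleotide genes, and BUD4 (0.62) and IQG1 (0.61) rose among the G2/M genes. TE ratios moved with length here too. POL3 has 1097 sense codons, POL12 705 and CDC45 650, and among genes of their own length they lay at percentiles 98.9, 98.0 and 98.4. These 3 were picked for passing the bound. The other replication genes of the list lay anywhere from percentiles 4.45 (RFA3) and 6.87 (CDC9) to 90.6 (CDC6) of their length groups. The part of length in these values was not tested. In AGG-OE against WT-URA none of the 13 passed (list median 0.07).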

How the data were processed

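Footprints and mRNA were measured in 5 strains, 10 libraries in all, with 1 of each kind per strain. The authors aligned reads to assembly R63 of the yeast genome, with Bowtie 1.0.0 named in the submitters' processing notes, kept uniquely mapped reads, left out genes with mapped mRNA at fewer than 50% of positions, and deposited whole footprint counts for each codon and their sum for each gene. Footprints that match paralogues equally are therefore missing. The mRNA signal was deposited by the authors as 1 whole number per gene with no named unit, and how it was scaled is not given in the sources used here.

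The strain of a table was taken from the sample labels. Counts and signal were divided by their total over 4964 shared genes. Comparisons used genes with at least 128 footprints in both strains, and a gene was called past a 1.5-fold change. With 1 library per strain no p-value is given. Alternatives changed the scaling, the fold, the minimum and the codons used. Members and lists were chosen with earlier results of these data known. Named genes are the 10 members, up to 4 list genes per list and comparison past 1.5-fold in footprints, and the 3 nearest patterns to RNR1 and to the member with the widest footprint range. Symbols came from RefSeq (assembly R64, 5269 of 5373 names matched), used for names and neighbours. Codon identities, threonine and arginine positions and promoter motifs were planned and not analysed here, for want of sequence of the files' build. Empty codons at equal depth are expected values under random thinning of the deeper gene. Scripts ran in Python 3.11.15 with pandas 2.3.3 and numpy 2.4.6 for the tables, scipy 1.17.1 for intervals and matplotlib 3.10.9 for drawing. The interval function and the 1.5-fold bound were tested on simulated counts, with the log2 ratio computed separately for that test.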

Additional observations from a re-analysis of the deposited data

How the results depend on the processing

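All results come from 1 library per strain, so no value has a replicate error, and footprint intervals cover counting alone. Of 360 single values under alternatives, 324 stayed within the counting interval or on their side of the bound, 36 did not, and no value past the bound changed sign. RNR1 TE in AGG-QC against WT-URA was past 1.5-fold only as first scaled: the count of members was 0 with the median of ratios (log2 ratio 0.49), without the 10 genes with the most footprints (0.58), past the first 100 codons (0.55), past them with a pseudo-count of 1 (0.57), and at a fold of 2. In WT-URA against wild-type the footprint count was 0 with the median of ratios and at a fold of 2. At a fold of 2 the mRNA count there was 1 (CLB2) and the TE count 0. The TE count there was 2 past the first 100 codons (CLB2 and SIC1) and 2 with the pseudo-count (CLN1 and CLB5, without CLB2). In ACA-K against wild-type the footprint count was 1 past the first 100 codons (CLB5, -0.60) and the TE count 1 with the pseudo-count (CLN1, 0.59). By the median of ratios, a check added after seeing the data, the members with all 3 plasmid strains above both plasmid-free strains numbered 3 instead of 6 for mRNA, 2 instead of 8 for footprints and 1 instead of 6 for both. The cause of these moves was not tested. Without the minimum of footprints the members' counts were unchanged, while more genes passed, for example 240 of 5152 against 131 for footprints in ACA-K and 223 of 5022 against 78 for TE in AGG-OE. With the pseudo-count 1774 of 4431 genes passed for TE in WT-URA against wild-type, compared with 388.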
